A study of Mus musculus with 4 samples.

Results

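The comparison described here sets lung CD8+ T cells of IPF-LC mice against those of LC mice, both after CD4+ cells had been depleted by antibody. It takes in 2 of the 4 RNA-seq libraries of the study, 1 per group, and was made across all genes on estimated read counts scaled for library size. The depleted IPF-LC library came from C57BL/6J mice of the IPF-LC model given an anti CD4-depleting antibody. The depleted LC library came from C57BL/6J mice of the LC model given the same antibody. The other pair, isotype IPF-LC and isotype LC, came from the same 2 models treated with an isotype antibody and is set beside the depleted pair where it helps. The labels do not spell out what IPF-LC and LC stand for, and neither age nor the number of mice behind a library is stated. In all groups the cells were sorted from lung as CD3+CD8+, so every difference below is between cells that passed that gate. The comparison asks how far the model goes with gene levels in lung CD8+ T cells once CD4+ cells have been depleted.

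CD8+ T cells recognise peptides on MHC class I molecules and kill the cells that show them, with perforin and granzymes or through death ligands, and they secrete interferon-gamma and chemokines. In inflamed or tumour-bearing lung they can divide, mature into KLRG1-bearing effectors, settle in the tissue with the integrin CD103, or acquire inhibitory receptors such as PD-1. CD4+ T cells hold both helper cells, which sustain CD8+ responses, and FOXP3-bearing regulatory cells, which restrain them. The lung is also rich in macrophages, whose transcripts are often found in lymphocyte sorts, and in scarred lung some of them make osteopontin.

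The 4 libraries held between 14946569 and 16217672 counts and between 14657 and 16415 genes with a count, and mitochondrially encoded genes took 1.82% of counts in depleted IPF-LC and 1.39% in depleted LC. Each level is a CPM value, a read count scaled to a common library size by the TMM method, which assumes that most genes are alike. Ratios are log2 of depleted IPF-LC over depleted LC, so that 1 is 2-fold higher and -1 is 2-fold lower in IPF-LC. With 1 library per group there is no replicate error and no test between the groups. The 95% intervals are exact binomial intervals that cover counting error only, and since the reads carry no molecular identifiers they understate even that. The spread between mice is unknown, so no difference below can be set against it, and in sorted bulk cells fewer cells of a type and less RNA per cell cannot be told apart.

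Most genes had much the same level in both libraries. Of 8201 genes averaging 10 CPM or more over the pair, 179 (2.18%) were higher in IPF-LC by 2-fold or more, and 196 (2.39%) were lower by as much. The whole counting interval lay beyond 2-fold for 101 of the higher genes (1.23% of all) and 97 of the lower ones (1.18%). In the isotype pair, which shares no library with the depleted pair, 152 of the same genes (1.85%) were higher by 2-fold or more and 250 (3.05%) lower by as much. The median log2 ratio over all 8201 genes was -0.0038. Among the 4258 genes averaging 50 CPM or more, 16 were higher by 2-fold or more and 12 lower by as much, so the differences lay mostly among genes of middling and low level.

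**Figure D1:**
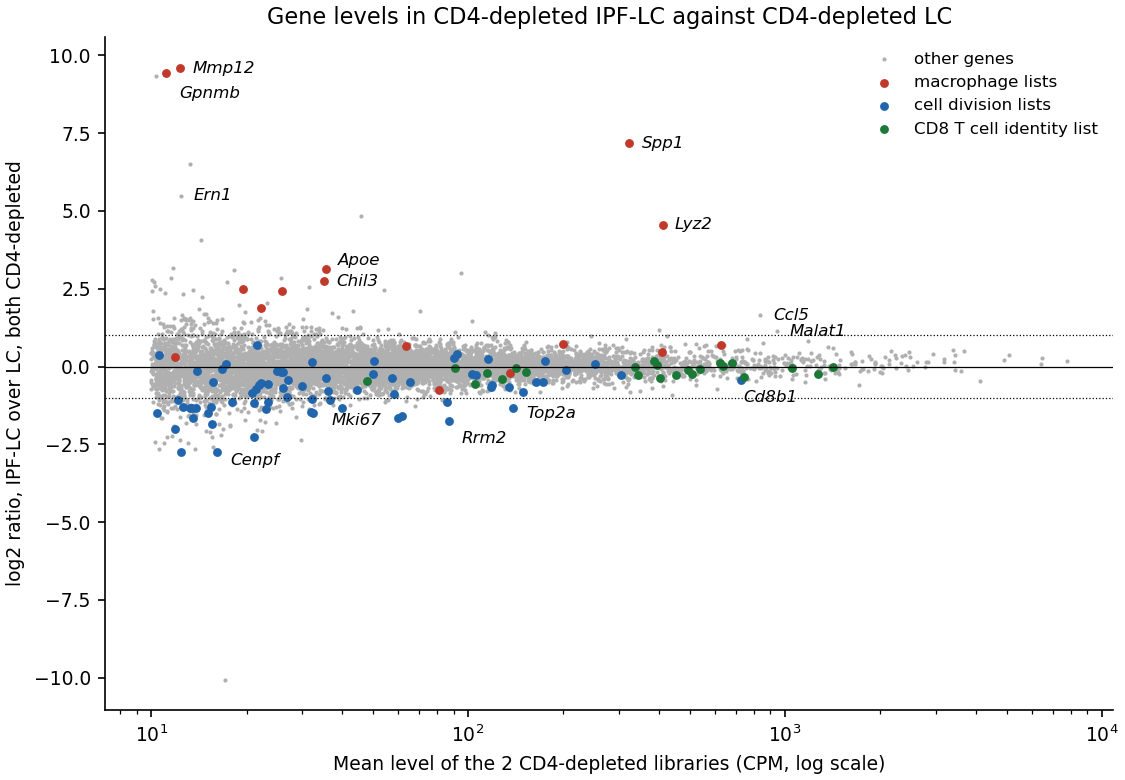
Log2 ratio of IPF-LC over LC, both CD4-depleted (vertical axis), against the mean level of the 2 libraries in CPM (horizontal log axis), 1 point per gene averaging 10 CPM or more, with dotted lines at 2-fold. Genes of the macrophage lists lie above the upper line or between the lines, genes of the cell division lists mostly below 0, and genes of the CD8 T cell identity list close to 0.

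The genes that mark the sorted cells were at like levels in both libraries. All 23 genes of the CD8 T cell identity list were measured, none was 2-fold apart, and their median ratio was -0.10. Cd8a and Cd8b1, the chains of the CD8 co-receptor, were somewhat lower in IPF-LC. Cd8a had 353 CPM in depleted IPF-LC and 452 CPM in depleted LC, a ratio of -0.36 (95% counting interval -0.41 to -0.30), and Cd8b1 had 654 CPM in depleted IPF-LC and 828 CPM in depleted LC, a ratio of -0.34 (-0.38 to -0.30). Cd3e, a chain of the CD3 complex, had 651 CPM in depleted IPF-LC and 599 CPM in depleted LC, and the lowest ratio of the list was that of Bcl11b, a T lineage transcription factor, at -0.56. Cd4 itself had 0 counts in depleted IPF-LC and 16 counts in depleted LC, against 73 counts in isotype IPF-LC and 12 counts in isotype LC. On a floor of 3 counts per library, Cd4 was at least 5.30-fold lower in depleted IPF-LC, but at so few counts the gene says little about either library. The 8 beta-chain variable segments averaging 10 CPM or more had ratios of -0.63 to 0.48, with none 2-fold apart.

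Genes of macrophages were the most conspicuous group on the higher side. Lists were counted over members averaging 1 CPM or more, called measured here. Of all 11632 genes at that level, 8.02% were higher in depleted IPF-LC by 2-fold or more and 7.02% lower by as much, with a median ratio of 0.0067. The same shares stand behind every list count below. Against that, 15 of the 20 measured genes of the macrophage and monocyte list were at least 2-fold higher and none 2-fold lower, with a median of 2.75. Of the 14 measured genes of the osteopontin and fibrosis-linked macrophage list, 10 were at least 2-fold higher and none 2-fold lower, with a median of 3.53, or 3.46 when genes at 0 in one library are set at the floor. Few members were abundant: over the 4 of each list that averaged 50 CPM or more, 1 was at least 2-fold higher and the medians were 0.71 and 0.56. Both lists were drawn up with earlier results of these libraries known.

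Spp1, which encodes osteopontin, a secreted matrix glycoprotein, had 640.4 CPM in depleted IPF-LC and 4.40 CPM in depleted LC, a ratio of 7.17 (95% counting interval 6.84 to 7.55). Its isotype levels were 1273 CPM in isotype IPF-LC and 158 CPM in isotype LC, so the depleted LC library held the least Spp1 of the 4 and both IPF-LC libraries held more than their LC counterparts. Lyz2, which encodes lysozyme of macrophages, had 788 CPM in depleted IPF-LC and 33.4 CPM in depleted LC, a ratio of 4.56 (4.43 to 4.69), against 2408 CPM in isotype IPF-LC and 2089 CPM in isotype LC. The chemokine gene Ccl6 had 88.99 CPM in depleted IPF-LC and 3.06 CPM in depleted LC, and Apoe, whose product carries lipid, had 63.8 CPM in depleted IPF-LC and 7.21 CPM in depleted LC. For Lyz2, Ccl6 and Apoe the isotype libraries lay close together and above both depleted ones, and the depleted LC library stood lowest.

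Several macrophage genes had no count at all in depleted LC. Mmp12, the macrophage metalloelastase, had 24.7 CPM in depleted IPF-LC and 0 counts in depleted LC, at least 129-fold higher. Gpnmb, a glycoprotein of lipid-laden and scar-associated macrophages, had 22.3 CPM in depleted IPF-LC and 0 counts in depleted LC, at least 117-fold higher. Adgre1, which encodes the surface marker F4/80, had 8.34 CPM in depleted IPF-LC and 0 counts in depleted LC, at least 43.6-fold higher, and Clec7a, the beta-glucan receptor dectin-1, had 12.8 CPM in depleted IPF-LC and 0 counts in depleted LC, at least 67.05-fold higher. Csf1r, the receptor for the macrophage growth factor, had 71 counts in depleted IPF-LC and 2 counts in depleted LC, a ratio of 4.85 (3.25 to 8.23). The lysosomal protease genes Ctsd and Ctss, which T cells also express, were less than 2-fold apart, at ratios of 0.70 and 0.72. Ccr2, a monocyte receptor that effector T cells carry too, had the list's lowest ratio, -0.76.

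Summed over all 26 listed genes, the macrophage and monocyte list came to 2097 CPM in depleted IPF-LC and 804 CPM in depleted LC, against 5128 CPM in isotype IPF-LC and 6570.2 CPM in isotype LC. Lyz2 alone made up 788 CPM of the sum in depleted IPF-LC and 33.4 CPM of that in depleted LC. Of those 26 genes, 4 were at 0 in depleted IPF-LC and 9 in depleted LC. The osteopontin list summed to 1529 CPM in depleted IPF-LC and 572 CPM in depleted LC. Spp1 alone made up 640.4 CPM of the sum in depleted IPF-LC and 4.40 CPM of that in depleted LC, so much of the difference between these sums is that of 1 gene. Of the list's defining genes, Gpnmb and Trem2 were at 0 in depleted LC and none was at 0 in depleted IPF-LC. The part that macrophage transcripts play in any other difference described here was not tested.

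**Figure D2:**
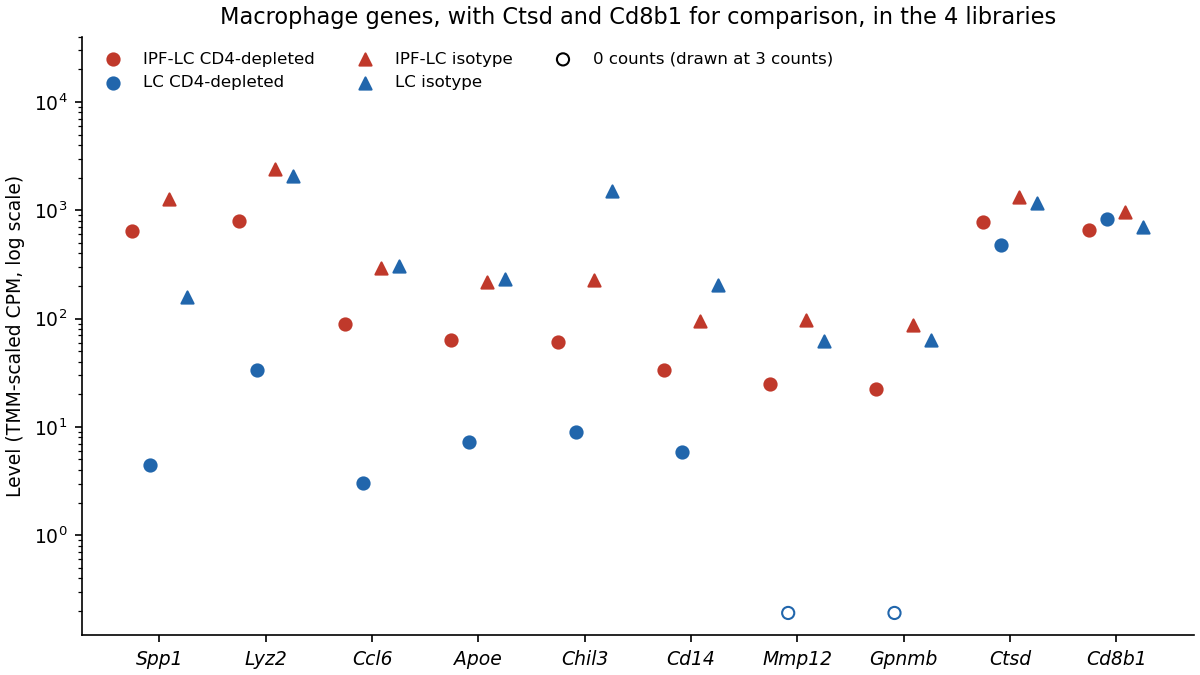
Levels in TMM-scaled CPM (vertical log axis) of 8 macrophage genes, with the lysosomal gene Ctsd and the CD8 gene Cd8b1 for comparison, 1 point per library; open circles stand for 0 counts and are drawn at the level of 3 counts. Spp1 lies at 640.4 CPM in depleted IPF-LC and at 4.40 CPM in depleted LC, whereas the 4 Cd8b1 points lie close together.

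The 20 genes with the highest counting bounds also included secreted inflammatory factors and myeloid genes. Il1a, the alarmin interleukin-1 alpha, had 25.1 CPM in depleted IPF-LC and 0 counts in depleted LC, at least 131-fold higher, and Il1b, interleukin-1 beta, had 21.1 CPM in depleted IPF-LC and 2.30 CPM in depleted LC, a ratio of 3.18 (2.70 to 3.74). Cxcl2, a neutrophil attractant, had 32.8 CPM in depleted IPF-LC and 3.76 CPM in depleted LC, and Mpeg1, the pore-forming protein perforin-2 of phagocytes, had 26.2 CPM in depleted IPF-LC and 0.255 CPM in depleted LC. Mmp19, a matrix metalloproteinase, had 20.8 CPM in depleted IPF-LC and 0 counts in depleted LC, at least 109-fold higher. Osgin1, a gene induced by oxidative stress, had 27.1 CPM in depleted IPF-LC and 1.59 CPM in depleted LC. Lpl, lipoprotein lipase, had 20.3 CPM in depleted IPF-LC and 2.81 CPM in depleted LC, and Cd36, a fatty acid receptor that averaged under 10 CPM and so is not among the 20, had 18.1 CPM in depleted IPF-LC and 1.34 CPM in depleted LC. Lilr4b, an inhibitory receptor of myeloid and activated lymphoid cells, had 92.2 CPM in depleted IPF-LC and 16.6 CPM in depleted LC. Since Lilr4b and Lilrb4a are near-identical and the counting could split their reads, they were also summed, which gave 141 CPM in depleted IPF-LC and 30.1 CPM in depleted LC, a ratio of 2.22. Entpd4b, likewise, had a ratio of 2.85 on its own row, but summed with its near-identical neighbour Entpd4 the ratio was only 0.18. In all, 8 of the 20 highest genes belonged to a list of another cell type, as did 48 of all 8201 genes averaging 10 CPM or more. Of the 20, 13 had a higher level in isotype IPF-LC than in depleted IPF-LC.

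A few of the highest genes are known in T cells. Ern1, which encodes the endoplasmic reticulum stress sensor IRE1 alpha, had 24.4 CPM in depleted IPF-LC and 0.510 CPM in depleted LC, a ratio of 5.49 (4.58 to 6.80), against 8.45 CPM in isotype IPF-LC and 15.3 CPM in isotype LC. On the deposited TPM values, which also allow for transcript length, its ratio was 3.13 with 0.5 added to each value, as in every TPM ratio below. The values themselves were 5.56 TPM in depleted IPF-LC and 0.19 TPM in depleted LC, so the added 0.5 makes this ratio smaller. Ikzf4, the Ikaros-family factor Eos, had 30.1 CPM in depleted IPF-LC and 4.53 CPM in depleted LC, a ratio of 2.72 (2.37 to 3.11), against 6.01 CPM in isotype IPF-LC and 4.46 CPM in isotype LC. Depleted IPF-LC thus stood above the other 3 libraries for both. Cdh1, E-cadherin, the epithelial partner of CD103 that some T cells express, had 17.6 CPM in depleted IPF-LC and 2.55 CPM in depleted LC, a ratio of 2.77, with the highest level of the 4 in isotype LC, 22.2 CPM.

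Markers of other lung cells were sparse and mixed. Of 13 measured genes of the NK cell list, 6 were higher by 2-fold or more and 1 lower by as much. The 6 were the signalling adaptors Tyrobp (16.2 CPM in depleted IPF-LC and 1.79 CPM in depleted LC) and Fcer1g (18.1 CPM in depleted IPF-LC and 3.19 CPM in depleted LC), which macrophages share, and the lectin-like receptors Klre1, Klra7, Klra9 and Klri2, while Ncr1, the defining NK receptor, had 0 counts in both libraries. Of 12 B cell and plasma cell genes, 5 were higher by 2-fold or more and 1 lower by as much. Ms4a1, which encodes CD20, had 2.05 CPM in depleted IPF-LC and 6.76 CPM in depleted LC. Of 6 measured neutrophil genes, 4 were at least 2-fold higher, the list summing to 40.4 CPM in depleted IPF-LC and 11.1 CPM in depleted LC, with Ly6g and S100a8 at 0 in both and S100a9 at 0 in depleted LC. Of 11 measured endothelial genes, 4 were higher by 2-fold or more and 3 lower by as much, and Kdr, the VEGF receptor, had 0 counts in depleted IPF-LC and 59 counts in depleted LC, at least 19.6-fold lower. Of 11 fibroblast and matrix genes, 4 were at least 2-fold higher, among them fibronectin, Fn1, at 43.8 CPM in depleted IPF-LC and 8.17 CPM in depleted LC, and 3 at least 2-fold lower. The fibroblast list summed to 70.1 CPM in depleted IPF-LC and 33.2 CPM in depleted LC, and without Fn1 to 26.3 CPM in depleted IPF-LC and 25.1 CPM in depleted LC. The dendritic cell list summed to nearly the same in both, 299.5 CPM in depleted IPF-LC and 287 CPM in depleted LC.

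On the lower side, genes of cell division formed the largest listed group. All 47 genes of the mitosis and G2/M list were measured, and 23 were at least 2-fold lower in depleted IPF-LC, none 2-fold higher, and 43 below 0. For 15 of the 23 the whole counting interval lay beyond 2-fold, as it did for 3.45% of all genes at that level. The list's median was -0.98, and -0.49 over its 9 members averaging 50 CPM or more. The DNA replication and repair list followed less far, with 11 of 40 genes at least 2-fold lower, none 2-fold higher and a median of -0.53. Summed, the mitosis list came to 1869 CPM in depleted IPF-LC and 2854 CPM in depleted LC, against 1291 CPM in isotype IPF-LC and 1634 CPM in isotype LC, so that depleted LC held the most of the 4 libraries. Of the 196 genes at least 2-fold lower at 10 CPM, 28 were in these lists, and of the 179 higher genes, 0 were, against 71 of all 8201 genes at that level.

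Mki67, the usual marker of cycling cells, had 30.9 CPM in depleted IPF-LC and 92.9 CPM in depleted LC, a ratio of -1.59 (95% counting interval -1.74 to -1.44), against 18.7 CPM in isotype IPF-LC and 33.7 CPM in isotype LC. Top2a, the topoisomerase that untangles chromosomes, had 79.6 CPM in depleted IPF-LC and 198 CPM in depleted LC, a ratio of -1.32 (-1.41 to -1.22). Ccnb1, the cyclin that drives entry into mitosis, had 6.74 CPM in depleted IPF-LC and 24.3 CPM in depleted LC, a ratio of -1.85 (-2.18 to -1.54). For these 3 genes depleted LC had the highest level of the 4 libraries. The furthest from 0 was Kif2c, a kinesin that frees wrongly attached microtubules, with 1.09 CPM in depleted IPF-LC and 10.8 CPM in depleted LC, a ratio of -3.27 (-4.12 to -2.58). Cenpf, a kinetochore protein, had 4.17 CPM in depleted IPF-LC and 28.2 CPM in depleted LC and a ratio of -2.75 (-3.16 to -2.38), and Hmmr, a spindle-associated hyaluronan receptor, had 3.21 CPM in depleted IPF-LC and 21.7 CPM in depleted LC and the ratio -2.75 (-3.22 to -2.33). The spindle assembly factor Tpx2 had 7.25 CPM in depleted IPF-LC and 35.02 CPM in depleted LC. At the other end, Plk1, a mitotic kinase, had 9.17 CPM in depleted IPF-LC and 5.93 CPM in depleted LC, a ratio of 0.63. On TPM values the ratios of Kif2c, Hmmr and Cenpf were -2.54, -2.09 and -1.34, and that of Aspm, a spindle pole protein, was 0.33 in place of -1.34, the one named gene that changed sign. The added 0.5 weighs most on low values, such as those of Kif2c, at 0.54 TPM in depleted IPF-LC and 5.55 TPM in depleted LC.

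In the replication list, the lowest ratio was that of Brca2, a gene of DNA break repair, with 1.28 CPM in depleted IPF-LC and 7.59 CPM in depleted LC, a ratio of -2.54 (-3.33 to -1.87), and -0.93 on TPM values with 0.5 added. Its TPM values were 1.26 in depleted IPF-LC and 2.86 in depleted LC, over 2-fold apart without the added 0.5. Rrm2, the ribonucleotide reductase subunit made in S phase, had 39.5 CPM in depleted IPF-LC and 134 CPM in depleted LC, a ratio of -1.76 (-1.90 to -1.63). Uhrf1, which copies DNA methylation onto new strands, had 29.1 CPM in depleted IPF-LC and 91.1 CPM in depleted LC, and Pclaf, a partner of PCNA, had 53.7 CPM in depleted IPF-LC and 118 CPM in depleted LC. Ccne1, a cyclin of S phase entry, had 4.68 CPM in depleted IPF-LC and 19.1 CPM in depleted LC, a ratio of -2.02. By contrast the replication helicase gene Mcm2 and the sliding clamp gene Pcna had ratios of -0.23 and -0.10, and the repair gene Brca1 had -0.68. Further division genes outside the lists were among the 20 lowest, including Shcbp1, which acts in cytokinesis, with 3.79 CPM in depleted IPF-LC and 23.7 CPM in depleted LC, Sgo1, which guards cohesion at centromeres, with 2.89 CPM in depleted IPF-LC and 18.3 CPM in depleted LC, Ncapg, a condensin subunit, with 8.66 CPM in depleted IPF-LC and 36.2 CPM in depleted LC, and the centrosomal kinase Nek2 with 5.71 CPM in depleted IPF-LC and 24.1 CPM in depleted LC.

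**Figure D3:**
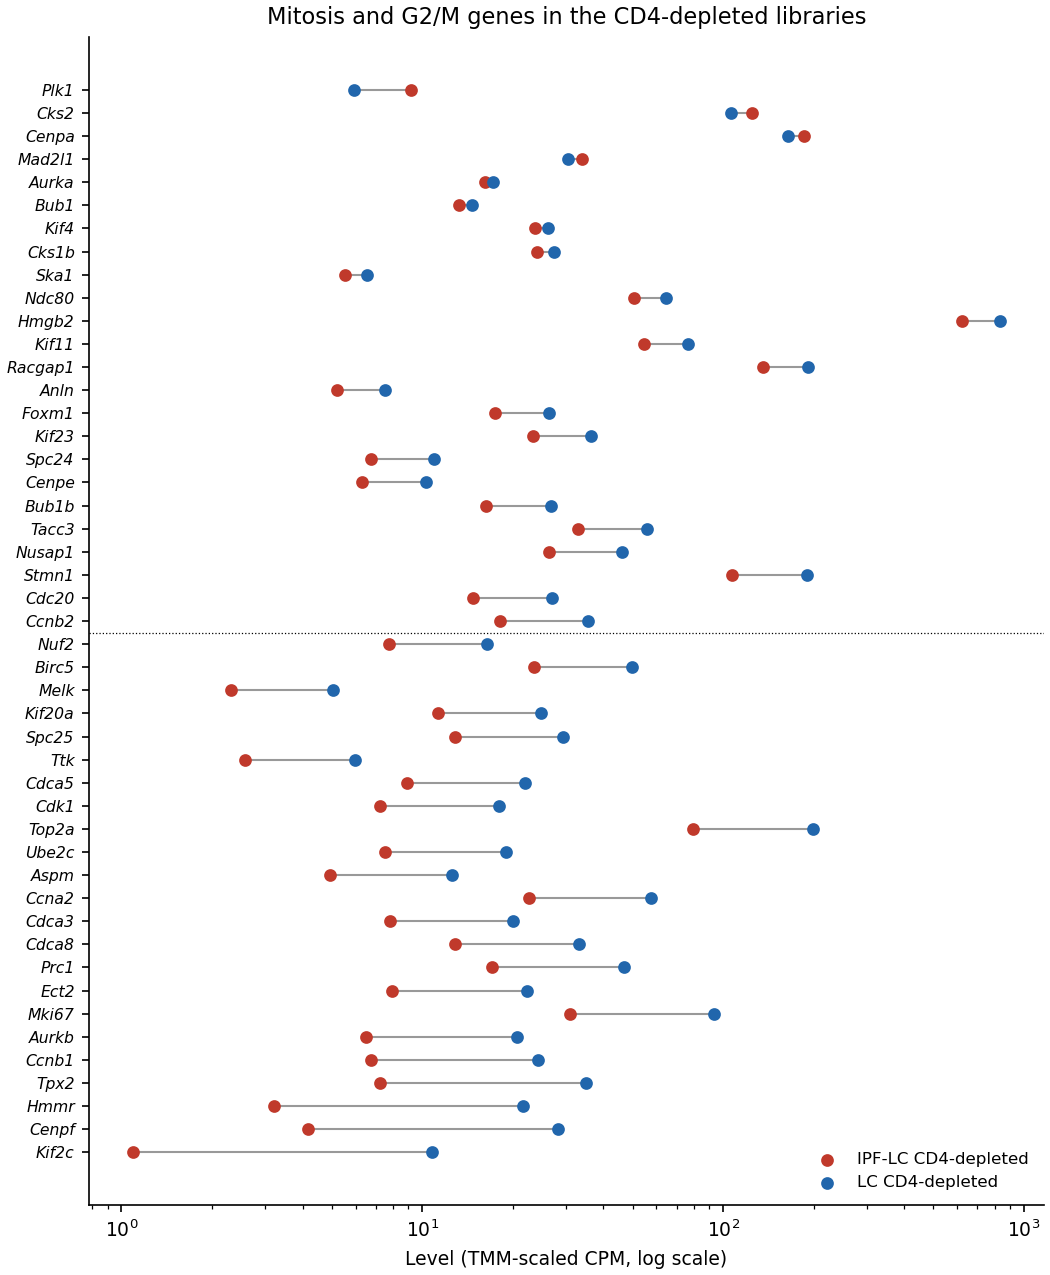
Levels in TMM-scaled CPM (horizontal log axis) of the 47 genes of the mitosis and G2/M list in CD4-depleted IPF-LC and CD4-depleted LC, ordered by their ratio. The 23 genes below the dotted line were at least 2-fold lower in IPF-LC, and 4 genes at the top had the higher level in IPF-LC.

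Many genes of mitosis carry in their promoters the cell cycle homology region, read here by its letters TTTGAA, and the CCAAT box, both searched on either strand (as TTCAAA or ATTGG where they lie on the other one). RefSeq promoter windows of the GRCm38.p6 assembly, running from 250 bases before to 50 after the start, were at hand for 39 of the 47 listed genes. TTTGAA was in 29 of the 39, which is 74.4%, against 20.2% of 27025 genes with a window and 5 of 32 genes of the replication list, which is 15.6%. It was in 15 of 19 genes at least 2-fold lower in depleted IPF-LC and in 14 of the 20 others. CCAAT was also in 29 of the 39, against 41.1% of all genes. The windows of Cenpf at chr1:189688037-189688336 and Hmmr at chr11:40733388-40733687, both on the minus strand, are shown because both genes were among the 3 lowest, with these letters in capitals in whichever orientation they occur.
Cenpf: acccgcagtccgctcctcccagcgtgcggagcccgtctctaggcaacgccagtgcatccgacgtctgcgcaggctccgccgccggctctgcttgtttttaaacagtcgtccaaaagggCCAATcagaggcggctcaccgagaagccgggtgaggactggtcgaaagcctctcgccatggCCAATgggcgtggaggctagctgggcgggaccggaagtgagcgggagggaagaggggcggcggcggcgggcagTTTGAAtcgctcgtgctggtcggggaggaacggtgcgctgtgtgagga
Hmmr: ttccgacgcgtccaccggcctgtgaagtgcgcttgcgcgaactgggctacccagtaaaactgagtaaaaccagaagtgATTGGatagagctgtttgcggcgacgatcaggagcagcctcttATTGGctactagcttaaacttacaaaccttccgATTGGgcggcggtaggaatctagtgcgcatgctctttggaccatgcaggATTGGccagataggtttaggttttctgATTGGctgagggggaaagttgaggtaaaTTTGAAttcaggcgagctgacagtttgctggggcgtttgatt
Cenpf's window holds TTTGAA once and the CCAAT letters at 2 places, and that of Hmmr holds TTTGAA once and the CCAAT letters at 5 places, all as ATTGG. A match of letters is not a measured binding site.

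The remaining genes of the 20 lowest belonged to no common group. The lowest ratio of all was that of 1 of 2 rows named Zc3h11a, a zinc finger gene, with 0 counts in depleted IPF-LC and 538 counts in depleted LC, but summed over both rows the gene had 113 CPM in depleted IPF-LC and 137 CPM in depleted LC, a ratio of -0.28. Ubxn7, an adaptor of the p97 ATPase, had 9.62 CPM in depleted IPF-LC and 49.95 CPM in depleted LC, a ratio of -2.37 (-2.64 to -2.12), against 57.9 CPM in isotype IPF-LC and 31.8 CPM in isotype LC. Casp9, the initiator caspase of the mitochondrial death pathway, had 3.98 CPM in depleted IPF-LC and 22.1 CPM in depleted LC, Slc39a10, a zinc importer, 3.34 CPM in depleted IPF-LC and 18.6 CPM in depleted LC, and Prmt2, an arginine methyltransferase, 3.98 CPM in depleted IPF-LC and 20.7 CPM in depleted LC. Wdfy2, Pacc1, Cdk5rap1, Depdc1b and Zbed4 were also among the 20, with ratios of -2.57, -2.24, -2.26, -2.28 and -2.04. In 17 of these 20 genes isotype IPF-LC was higher than depleted IPF-LC. Since the 20 were ranked on a low level in depleted IPF-LC against depleted LC, that count follows in part from the choice. The inducible heat shock genes Hspa1a and Hspa1b, near-identical copies, summed to 11.7 CPM in depleted IPF-LC and 52.2 CPM in depleted LC, a ratio of -2.16 (-2.40 to -1.93), with 99.8 CPM in isotype IPF-LC and 77.9 CPM in isotype LC. The other 15 measured heat shock and chaperone genes were less than 2-fold apart.

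Effector genes of CD8+ T cells leaned higher in depleted IPF-LC, with chemokines furthest on the higher side and granzyme B and perforin closer to 0. Of 20 measured cytotoxic effector genes, 5 were higher by 2-fold or more and 2 lower by as much, with a median of 0.29. Ccl5, a chemokine stored by memory and effector cells, had 1269 CPM in depleted IPF-LC and 404 CPM in depleted LC, a ratio of 1.65 (95% counting interval 1.61 to 1.69), against 647 CPM in isotype IPF-LC and 726 CPM in isotype LC. Ccl4, an inflammatory chemokine, had 53.8 CPM in depleted IPF-LC and 9.12 CPM in depleted LC, a ratio of 2.56 (2.30 to 2.83). For both genes depleted LC was the lowest and depleted IPF-LC the highest of the 4 libraries. Gzmk, granzyme K, had 34.4 CPM in depleted IPF-LC and 15.4 CPM in depleted LC, a ratio of 1.15 (0.93 to 1.38), and the chemokine genes Ccl3 and Xcl1 had ratios of 1.63 and 1.74 at under 6 CPM.

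Gzmb, the main killing granzyme, had 196 CPM in depleted IPF-LC and 160.2 CPM in depleted LC, a ratio of 0.29 (0.22 to 0.37), and Prf1, perforin, had 79.7 CPM in depleted IPF-LC and 70.3 CPM in depleted LC, a ratio of 0.18 (0.063 to 0.30). Ifng, interferon-gamma, had 25.9 CPM in depleted IPF-LC and 14.1 CPM in depleted LC, a ratio of 0.88 (0.64 to 1.12), whose interval reaches past 2-fold only at its upper end. Fasl, the death ligand, and Gzma, granzyme A, had ratios of 0.96 and 0.82. On the lower side were Tnf, at 3.02 CPM in depleted IPF-LC and 7.46 CPM in depleted LC, a ratio of -1.30, and Gzmc, at 5 counts in depleted IPF-LC and 33 counts in depleted LC, whose ratio of -2.60 (-4.43 to -1.35) was the furthest from 0 in the list. Macrophages also transcribe Ccl3, Ccl4 and Tnf. The macrophage list summed to 2097 CPM in depleted IPF-LC and 804 CPM in depleted LC, and to 5128 CPM in isotype IPF-LC and 6570.2 CPM in isotype LC. Ccl4 had 24.6 CPM in isotype IPF-LC and 41.7 CPM in isotype LC. Whether macrophage transcripts played a part in the levels of these 3 genes was not tested.

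Genes of the terminal effector state were likewise higher or near level. Of 16 measured, 5 were at least 2-fold higher and none 2-fold lower, with a median of 0.48, and 0.21 over the 6 members averaging 50 CPM or more. Klrg1, the lectin-like receptor of short-lived effectors, had 22.8 CPM in depleted IPF-LC and 7.02 CPM in depleted LC, a ratio of 1.70 (1.39 to 2.02), against 4.73 CPM in isotype IPF-LC and 11.001 CPM in isotype LC. Klrk1, the activating receptor NKG2D, had 64.1 CPM in depleted IPF-LC and 26.9 CPM in depleted LC, a ratio of 1.25 (1.09 to 1.42). Tbx21, the transcription factor T-bet, had 81.9 CPM in depleted IPF-LC and 39.4 CPM in depleted LC, a ratio of 1.06 (0.92 to 1.20), and Zeb2, a factor of terminal effectors that myeloid cells also express, had 10.2 CPM in depleted IPF-LC and 3.96 CPM in depleted LC. On TPM values, with 0.5 added to each, the ratios of Tbx21 and Zeb2 were 0.99 and 0.55. Without the added 0.5, Tbx21 stayed just over 2-fold apart, at 47.25 TPM in depleted IPF-LC and 23.53 TPM in depleted LC. Zeb2 was under 2-fold either way, at 3.67 TPM in depleted IPF-LC and 2.34 TPM in depleted LC. Itgam, the integrin chain CD11b shared with macrophages, had 7.51 CPM in depleted IPF-LC and 1.28 CPM in depleted LC. Cx3cr1, the fractalkine receptor, had 8.60 CPM in depleted IPF-LC and 6.63 CPM in depleted LC, a ratio of 0.37 (-0.0064 to 0.76), and S1pr5, a receptor for leaving tissue, had the list's lowest ratio, -0.64.

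Naive and central memory genes lay close together, with none of 18 measured genes 2-fold apart and a median of 0.015. Tcf7, the transcription factor TCF-1, had 539 CPM in depleted IPF-LC and 646 CPM in depleted LC, a ratio of -0.26, and Ccr7, the lymph node homing receptor, had a ratio of 0.011. The 29 T cell receptor signalling genes were all less than 2-fold apart as well, from -0.67 for the phosphatase gene Ptpn6 to 0.49 for the ubiquitin ligase gene Cblb.

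Among inhibitory receptors and exhaustion genes, 2 of 20 measured were higher by 2-fold or more and 1 lower by as much, with a median of 0.23. The shares of all genes at that level were 8.02% and 7.02%. Pdcd1, which encodes PD-1, had 122 CPM in depleted IPF-LC and 85.6 CPM in depleted LC, a ratio of 0.52 (0.41 to 0.62), against 33.2 CPM in isotype IPF-LC and 136 CPM in isotype LC, so the depleted pair differed by less than 2-fold. Havcr2, which encodes TIM-3, had 9.94 CPM in depleted IPF-LC and 21.5 CPM in depleted LC, a ratio of -1.11 (-1.40 to -0.83), the list's lowest. Lag3 had 7.44 CPM in depleted IPF-LC and 5.04 CPM in depleted LC, a ratio of 0.56 (0.14 to 0.99), at a level where counting error alone reaches from near 0 to 2-fold. The 2 higher genes were Tox2, a relative of the exhaustion factor TOX, with 13.2 CPM in depleted IPF-LC and 4.66 CPM in depleted LC, and Cd244a, the receptor 2B4, with 5.07 CPM in depleted IPF-LC and 1.28 CPM in depleted LC.

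Tissue residency genes split. Of 18 measured, 5 were higher by 2-fold or more and 1 lower by as much, with a median of 0.45. Itgae, the CD103 chain, had 169 CPM in depleted IPF-LC and 226 CPM in depleted LC, a ratio of -0.42 (-0.49 to -0.34), while Itga1, the collagen-binding chain CD49a, had 8.66 CPM in depleted IPF-LC and 1.40 CPM in depleted LC, a ratio of 2.60 (1.97 to 3.35), and 1.23 on TPM values. The TPM values of Itga1 were 1.61 in depleted IPF-LC and 0.4 in depleted LC, so the added 0.5 makes that ratio smaller. Cxcr6, which holds T cells in the lung, had 227 CPM in depleted IPF-LC and 159 CPM in depleted LC, a ratio of 0.51 (0.44 to 0.59). The higher genes besides Itga1 were Cdh1, Ccr8, Xcl1 and Cd244a. The lower one was Gpr55, a lipid receptor, at 7.06 CPM in depleted IPF-LC and 14.7 CPM in depleted LC. Its ratio on TPM values was -0.98 with 0.5 added, from 2.6 TPM in depleted IPF-LC and 5.6 TPM in depleted LC, which are over 2-fold apart.

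**Figure D4:**
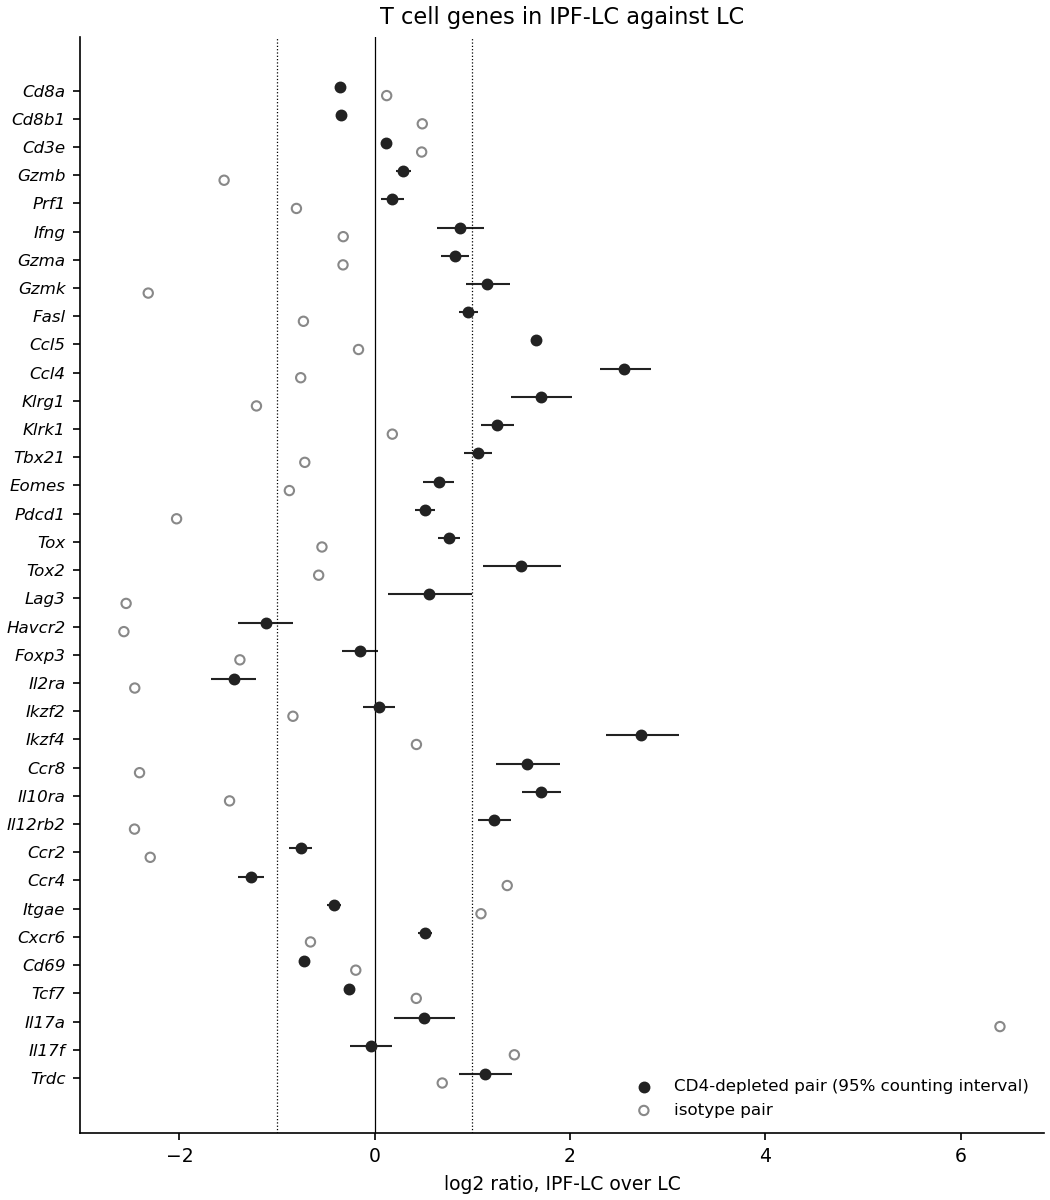
Log2 ratio of IPF-LC over LC (horizontal axis) for T cell genes in the CD4-depleted pair, as filled points with 95% counting intervals, and in the isotype pair, as open points; dotted lines mark 2-fold. Ccl4, Klrg1 and Ikzf4 lie to the right in the depleted pair, and Il2ra, Ccr4 and Havcr2 to the left.

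Regulatory T cell genes showed no common direction. Of 16 measured, 4 were higher by 2-fold or more and 2 lower by as much, with a median of 0.12. Foxp3, the lineage factor, had 29.3 CPM in depleted IPF-LC and 32.5 CPM in depleted LC, a ratio of -0.15 (-0.34 to 0.032), so no difference was detectable at this depth, and both depleted libraries stood above the isotype ones, at 1.47 CPM in isotype IPF-LC and 3.88 CPM in isotype LC. Il2ra, the high-affinity interleukin-2 receptor chain CD25, had 13.7 CPM in depleted IPF-LC and 37.4 CPM in depleted LC, a ratio of -1.45 (-1.68 to -1.22), and Ikzf2, the factor Helios, had a ratio of 0.044. Besides Ikzf4, given above, the higher genes were Lrrc32, which holds latent TGF-beta on the cell surface, with 14.1 CPM in depleted IPF-LC and 3.13 CPM in depleted LC, the chemokine receptor gene Ccr8 with 19.8 CPM in depleted IPF-LC and 6.70 CPM in depleted LC, and the cytokine subunit gene Ebi3 with 30 counts in depleted IPF-LC and 10 counts in depleted LC. The lower ones were Il2ra and Izumo1r, which encodes folate receptor 4. Of 8 measured CD4 helper genes, none was 2-fold higher and 2 were at least 2-fold lower, the helper receptor Ccr4 with 40.04 CPM in depleted IPF-LC and 96.3 CPM in depleted LC, a ratio of -1.27 (-1.40 to -1.13), and the helper ligand gene Cd40lg with 5.33 CPM in depleted IPF-LC and 12.4 CPM in depleted LC. Zbtb7b, the CD4 lineage factor ThPOK, had 3 counts in depleted IPF-LC and 27 counts in depleted LC, under the minimum for the list.

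Type 17 genes were mostly less than 2-fold apart in the depleted pair. Of 16 measured, none was 2-fold higher and 2 were at least 2-fold lower. Il17a had 13.3 CPM in depleted IPF-LC and 9.38 CPM in depleted LC, a ratio of 0.51 (0.20 to 0.82), and Il17f 23.7 CPM in depleted IPF-LC and 24.3 CPM in depleted LC, a ratio of -0.038 (-0.25 to 0.17). Il22, a cytokine that acts on epithelium and 1 of the lower genes, had 11 counts in depleted IPF-LC and 70 counts in depleted LC. Of 9 measured gamma delta T cell genes, 3 were higher by 2-fold or more and 1 lower by as much. The 3 higher ones were receptor constant genes: Trdc had 22.97 CPM in depleted IPF-LC and 10.5 CPM in depleted LC, Trgc1 10.97 CPM in depleted IPF-LC and 1.79 CPM in depleted LC and Trgc4 45 counts in depleted IPF-LC and 12 counts in depleted LC. On TPM values, with 0.5 added to each, the ratio of Trdc was 0.99. Without the added 0.5 it was over 2-fold apart, at 8.11 TPM in depleted IPF-LC and 3.83 TPM in depleted LC. Sox13, a factor of interleukin-17-making gamma delta cells, had 0 counts in both libraries.

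Cytokine receptors gave 4 of 27 genes higher by 2-fold or more and 1 lower by as much, against 8.02% and 7.02% of all genes at that level. Il10ra, the interleukin-10 receptor chain, had 57.04 CPM in depleted IPF-LC and 17.5 CPM in depleted LC, a ratio of 1.70 (1.51 to 1.91), against 16.6 CPM in isotype IPF-LC and 46.7 CPM in isotype LC. Il12rb2 and Il12rb1, the chains of the interleukin-12 receptor, which drives interferon-gamma output, had ratios of 1.22 (1.06 to 1.39) and 1.01 (0.70 to 1.33). The common beta chain gene Csf2rb, strong in myeloid cells, had 51 counts in depleted IPF-LC and 4 counts in depleted LC, and the lower gene was Il2ra. Il2rb and Il7r, which keep memory cells alive through interleukin-15 and interleukin-7, had ratios of 0.47 and -0.026. Of 23 measured chemokine receptors and homing genes, Ccr8 and Xcr1 were higher by 2-fold or more, and Ccr4 and Ccr10 lower by as much. Ccr10, a receptor of skin and mucosal homing, had 1.22 CPM in depleted IPF-LC and 13.01 CPM in depleted LC, a ratio of -3.38 (-4.18 to -2.74), whereas Cxcr3, a receptor of interferon-gamma-linked homing, had 126 CPM in depleted IPF-LC and 115 CPM in depleted LC, a ratio of 0.12. Of 16 Notch pathway genes, 3 were at least 2-fold higher, led in level by the feedback inhibitor gene Nrarp at 33.6 CPM in depleted IPF-LC and 13.4 CPM in depleted LC, while Notch1 had a ratio of 0.36. Of 21 measured TGF-beta pathway genes, 1 was higher by 2-fold or more, the matrix gene Tgfbi at 6.99 CPM in depleted IPF-LC and 1.47 CPM in depleted LC, and 1 lower by as much, Tgfb3 at 1.67 CPM in depleted IPF-LC and 3.38 CPM in depleted LC. The ratio of Tgfb3 on TPM values was -0.71 with 0.5 added, from 0.68 TPM in depleted IPF-LC and 1.43 TPM in depleted LC, which are over 2-fold apart. The receptor genes Tgfbr1 and Tgfbr2 had ratios of -0.50 and 0.25.

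A few genes of the type I interferon response were higher in depleted IPF-LC while most were level. Of 47 measured, 6 were higher by 2-fold or more and 1 lower by as much, with a median of 0.11. Over all 11632 genes at that level the shares were 8.02% and 7.02%, so the list count is not far from that of genes in general. Over the 20 members averaging 50 CPM or more the median was -0.18 and none was 2-fold apart, and the whole list summed to 4009 CPM in depleted IPF-LC and 4417 CPM in depleted LC. Ifit1, which binds foreign RNA caps, had 64.1 CPM in depleted IPF-LC and 26.8 CPM in depleted LC, a ratio of 1.26 (95% counting interval 1.09 to 1.43), and its neighbour in the family Ifit3 had 58.3 CPM in depleted IPF-LC and 19.3 CPM in depleted LC, a ratio of 1.59 (1.40 to 1.78). Rsad2, the antiviral enzyme viperin, had 18.4 CPM in depleted IPF-LC and 6.44 CPM in depleted LC, and Mx1, an antiviral GTPase, had 10.1 CPM in depleted IPF-LC and 2.87 CPM in depleted LC. For Ifit1, Ifit3 and Rsad2 both isotype libraries stood above depleted IPF-LC and depleted LC was lowest, with Ifit3 at 69.5 CPM in isotype IPF-LC and 71.3 CPM in isotype LC. Isg15, a ubiquitin-like modifier, had a ratio of 0.21 (-0.15 to 0.57) and Slfn5, a Schlafen family gene, -1.04 (-1.32 to -0.77). None of 22 measured interferon-gamma induced GTPases and their partners was 2-fold apart, and their median was -0.0087.

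The core of the interferon-stimulated response element was read in the RefSeq promoter windows by the letters GAAANNGAA, or TTCNNTTTC where it lies on the other strand. It was in 20 of 36 type I interferon response genes with a window (55.6%), against 9.76% of all genes. Of the 6 genes at least 2-fold higher, 4 had a window and all 4 held the letters, as did 15 of the 31 other measured genes with a window. The letters were also in 9 of 15 interferon-gamma induced genes (60%), none of which was 2-fold apart. The windows of Ifit1 at chr19:34640639-34640938 and Ifit3 at chr19:34583279-34583578, both on the plus strand of GRCm38.p6, are shown because these genes led the higher ones in level, with the letters in capitals.
Ifit1: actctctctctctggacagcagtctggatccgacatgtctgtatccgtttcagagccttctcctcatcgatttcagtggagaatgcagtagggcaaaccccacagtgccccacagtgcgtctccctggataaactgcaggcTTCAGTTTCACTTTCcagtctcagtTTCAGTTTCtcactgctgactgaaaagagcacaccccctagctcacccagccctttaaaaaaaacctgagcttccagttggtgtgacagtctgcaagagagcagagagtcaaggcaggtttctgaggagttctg
Ifit3: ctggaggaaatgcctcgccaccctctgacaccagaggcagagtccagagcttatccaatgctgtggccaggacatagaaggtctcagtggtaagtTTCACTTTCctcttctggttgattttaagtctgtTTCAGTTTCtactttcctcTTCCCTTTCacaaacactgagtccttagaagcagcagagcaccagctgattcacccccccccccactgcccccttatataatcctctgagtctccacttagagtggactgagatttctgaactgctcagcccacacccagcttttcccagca
Each window holds the letters at 3 places, all as TTCNNTTTC, and in that of Ifit1 a pair of them overlap.

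Housekeeping and stress lists were flat by comparison. None of 34 cytosolic ribosomal protein genes, 31 oxidative phosphorylation genes or 24 glycolysis and hypoxia genes was 2-fold apart, with medians of -0.075, -0.046 and 0.072. The 17 genes of the S100, annexin and galectin list were all less than 2-fold apart, but 15 were below 0, with the lowest ratio for Lgals1, galectin-1, at 236 CPM in depleted IPF-LC and 413 CPM in depleted LC. All 15 mitochondrially encoded genes were above 0, with a median of 0.50 and, for mt-Co1, a subunit of cytochrome oxidase, 4021 CPM in depleted IPF-LC and 2777 CPM in depleted LC. The nuclear RNAs Malat1 and Neat1 were higher too, Malat1 at 1298 CPM in depleted IPF-LC and 591 CPM in depleted LC, a ratio of 1.13 (1.10 to 1.17), and Neat1 at 150.3 CPM in depleted IPF-LC and 54.99 CPM in depleted LC, a ratio of 1.45 (1.34 to 1.57). In both, depleted IPF-LC was the highest and depleted LC the lowest of the 4 libraries. These transcripts can move with RNA quality, and their part in the other differences was not tested. Of 22 unfolded protein response genes, 2 were at least 2-fold higher, Ern1 and Asns, against 8.02% of all genes at that level. Asns, the asparagine synthetase gene, had 5.65 CPM in depleted IPF-LC and 1.34 CPM in depleted LC, while the chaperone gene Hspa5 had a ratio of 0.15.

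Some abundant genes outside the lists were also 2-fold apart, and these were chosen after their values were seen, as genes with at least 50 CPM. Rgs16, a brake on chemokine receptor signalling, had 154 CPM in depleted IPF-LC and 71.6 CPM in depleted LC, a ratio of 1.11 (1.004 to 1.21), against 24.6 CPM in isotype IPF-LC and 148 CPM in isotype LC. Sbno2, a gene induced by interleukin-10 in macrophages, had 109 CPM in depleted IPF-LC and 31.6 CPM in depleted LC, Mapkapk2, a kinase of the p38 stress pathway, 125 CPM in depleted IPF-LC and 57.7 CPM in depleted LC, and Hnrnph1, a splicing factor, 164 CPM in depleted IPF-LC and 78.7 CPM in depleted LC, with a ratio on TPM values of 0.63. On the lower side, Etv6, an ETS-family repressor, had 33.9 CPM in depleted IPF-LC and 75.3 CPM in depleted LC, a ratio of -1.15 (-1.30 to -1.003), the ubiquitin ligase gene Znrf2 40.6 CPM in depleted IPF-LC and 86.95 CPM in depleted LC, and Gnpat, an enzyme of ether lipid synthesis, 53.5 CPM in depleted IPF-LC and 113 CPM in depleted LC.

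**Figure D5:**
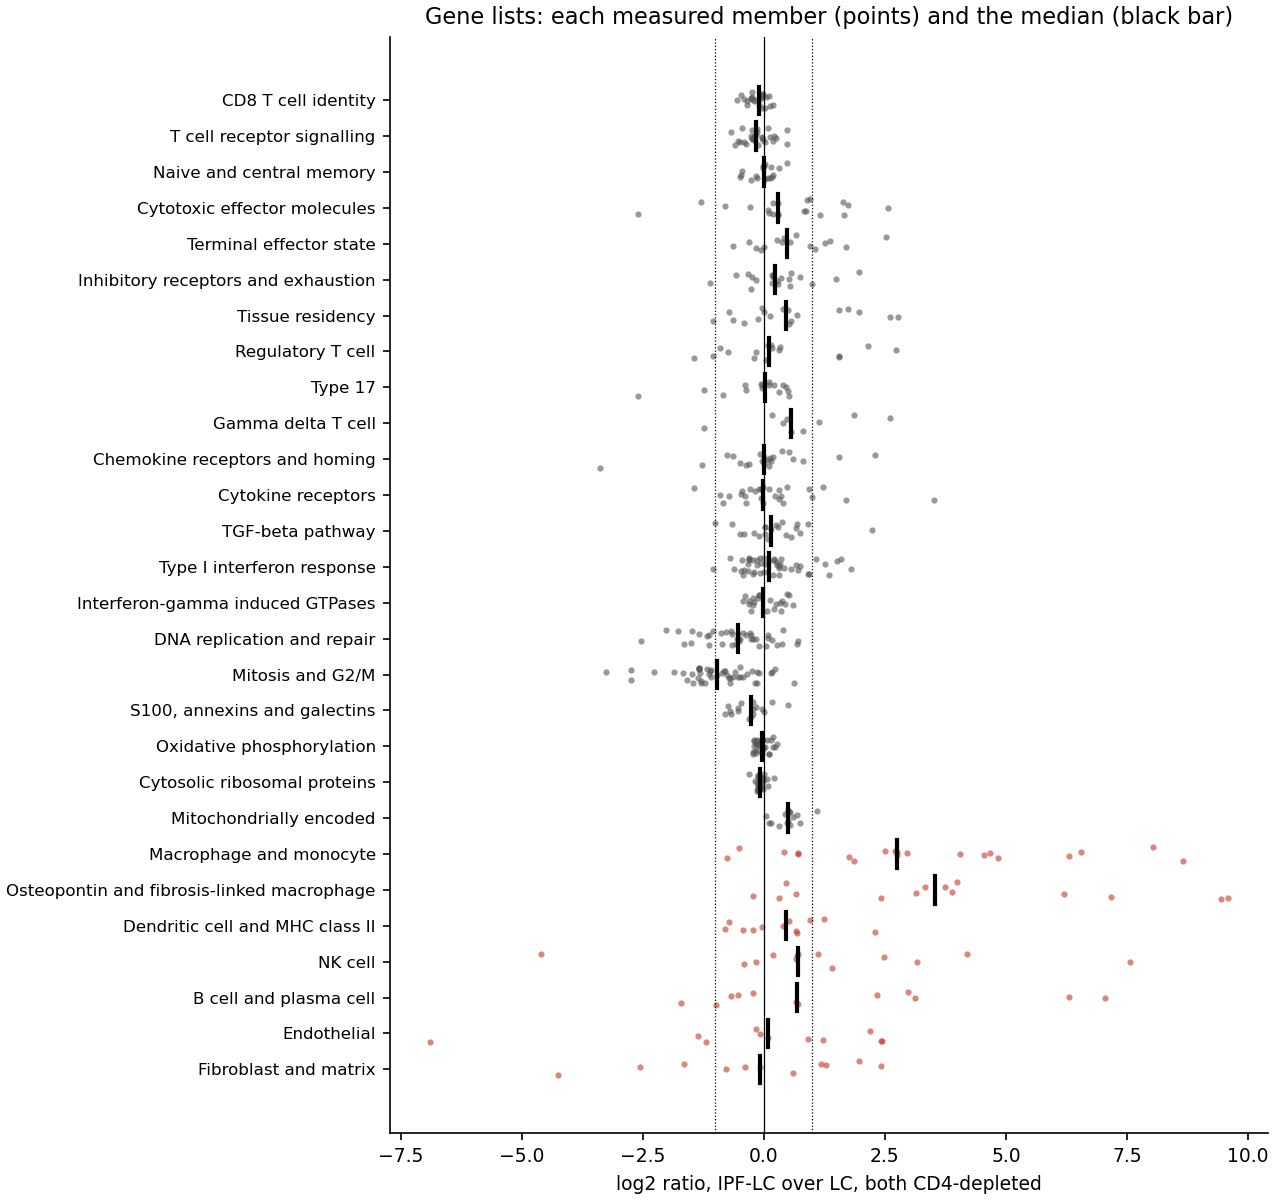
Log2 ratio of IPF-LC over LC, both CD4-depleted (horizontal axis), for the measured members of the gene lists shown. Points are grey for T cell and quality lists and red for lists of other cell types. Black bars mark the median of each list and dotted lines mark 2-fold. The macrophage lists have medians of 2.75 and 3.53, the mitosis list -0.98, and the CD8 T cell identity list -0.10.

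The isotype pair gives the same lists side by side. The macrophage and monocyte list had a median of 2.75 in the depleted pair and -1.18 in the isotype pair. There none of its measured genes was 2-fold higher and 13 were 2-fold lower, against 5.08% and 9.72% of all 11632 genes averaging 1 CPM or more. The osteopontin and fibrosis-linked list had a median of 3.53 in the depleted pair and 0.23 in the isotype pair, where 1 gene was 2-fold higher and 2 were 2-fold lower. The terminal effector list had medians of 0.48 and -0.81 in the depleted and isotype pairs, the cytotoxic effector list 0.29 and -0.74, the inhibitory list 0.23 and -0.68, and the regulatory T cell list 0.12 and -1.15. The mitosis list was below 0 in both, at -0.98 and -0.48, and so was the replication list, at -0.53 and -0.52. Of the 179 higher genes of the depleted pair, 5 were also 2-fold higher in the isotype pair and 37 were 2-fold lower there. Of the 196 lower genes, 11 were 2-fold higher and 22 were 2-fold lower there. Over all 8201 genes averaging 10 CPM or more, 152 (1.85%) were 2-fold higher in the isotype pair and 250 (3.05%) were 2-fold lower. Of the 179 higher genes, 39 (21.8%) had higher levels in both isotype libraries than in either depleted one, against 17.5% of all 8201 genes. With 1 library per group the difference between the pairs was not tested.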

How the data were processed

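RNA from CD3+CD8+ lung cells was extracted with an RNeasy Micro kit, reverse-transcribed with SMART-Seq v4 Ultra Low Input and made into libraries with NEBNext Ultra II, per the labels. Tools listed in the submitters' processing notes, with no role given, are RSEM 1.3.3, STAR 2.7.11a, MultiQC 1.25.2 and fastp 0.23.4, and the build is GRCm39 (mm39). The annotation release is not given in the sources used here. The authors deposited 1 table per library with 55401 genes in the layout of RSEM gene results. Expected counts, as deposited by the authors, are estimated reads per gene, not normalised, of which 5.49 to 5.89% were not whole; they were rounded. TPM values, as deposited, are scaled to length and library and served as an alternative, with 0.5 added to each value before a ratio was taken. FPKM values, as deposited by the authors, are per length and library size and were not used. Estimated counts can be split between near-identical genes, so such rows were also summed. Libraries were grouped by the labels alone.

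Totals were 16217672 (depleted IPF-LC), 15767812 (depleted LC), 15439173 (isotype IPF-LC) and 14946569 (isotype LC), with TMM factors from edgeR 4.0.16 of 0.961, 0.994, 1.01 and 1.03. Log2 ratios of CPM were formed with a prior count of 0.5. Their 95% intervals are exact conditional binomial (Clopper-Pearson) intervals, and folds against 0 counts use a floor of 3 counts per library. Genes were counted at a mean of at least 10 CPM over the 2 libraries and list members at 1 CPM. The ratio step was tested on simulated data. The pair, the lists (50, with 972 of 982 symbols found), named genes and alternatives were chosen with earlier results of these data known. Named are the 20 highest and 20 lowest genes by the counting bound nearest 0 (passing over receptor segments and unnamed gene models), each list's defining genes, and list members whose interval lies beyond 2-fold or whose ratio is the list's largest or smallest; a few further members are named for their known role. A few genes that this rule names are not reported here. Alternatives were DESeq2 1.42.0 size factors, library totals, TMM over the pair, TPM, a prior count of 5, minima of 50 CPM, none or over 4 libraries, leaving out other-cell genes, and, chosen after seeing the data, summed rows and the fibroblast sum without Fn1.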

Additional observations from a re-analysis of the deposited data

Results flagged for a closer look

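Of 664 named genes averaging 10 CPM or more, 13 had whole counting intervals beyond 2-fold in opposite directions in the depleted and the isotype pair. The difference was not tested, since each of the 4 groups has 1 library. In 12 of the 13 the depleted IPF-LC library was above depleted LC and isotype IPF-LC below isotype LC. Among myeloid genes, Chil3, a chitinase-like protein of lung macrophages, had log2 ratios of 2.75 in the depleted and -2.72 in the isotype pair. Mpeg1 had 6.52 in the depleted and -1.59 in the isotype pair, and Cd14, the endotoxin co-receptor, 2.50 and -1.10 in that order. The chemokine gene Cxcl2 had 3.11 and -1.13, Cybb, a subunit of the phagocyte oxidase, 1.87 and -1.21, the adaptor gene Fcer1g 2.49 and -1.49, Lilr4b 2.47 and -1.49, and Osgin1 4.06 and -3.16. On TPM values the depleted ratio of Cybb was 0.84. Receptor genes of T cells are among them: Ccr8 had 1.56 in the depleted and -2.41 in the isotype pair, Il10ra 1.70 and -1.49, and Il12rb2 1.22 and -2.46. Entpd4b had 2.85 and -3.94, but summed with Entpd4 the ratios were 0.18 and -0.30. The 1 gene with the opposite order was Cdk5rap1, an RNA-modifying enzyme gene, with -2.26 in the depleted and 1.99 in the isotype pair.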

How the results depend on the processing

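No paired analysis was possible because each group has 1 library, and for the same reason no replicate could be left out. The counts of genes depend mostly on the minimum level. At least 2-fold higher were 16 genes at a minimum of 50 CPM, 3152 with no minimum, 278 with the minimum set over all 4 libraries, and 101 when the whole counting interval had to pass. At least 2-fold lower were 12 genes at 50 CPM, 2509 with no minimum and 97 with the whole interval. At 50 CPM, 2 mitosis genes were at least 2-fold lower and 1 macrophage gene at least 2-fold higher, of 9 and 4 members at that level. List medians over members of 50 CPM or more also lay nearer 0 or changed sign: mitosis -0.49 in place of -0.98, macrophage 0.71 in place of 2.75, osteopontin 0.56 in place of 3.53, terminal effector 0.21 in place of 0.48, type I interferon -0.18 in place of 0.11, NK cell -0.16 in place of 0.70 and lipid uptake -0.043 in place of 0.11, while the interferon-gamma GTPases had -0.11 in place of -0.0087. Other scalings shifted the median of all genes by 0.0116 (DESeq2 size factors), -0.0488 (library totals), -0.0129 (TMM over the pair) and -0.0443 (TPM). Of 187 named genes at least 2-fold apart, 1, 3, 2 and 24 fell under 2-fold in that order, and 8 with a prior count of 5. The count of 24 for TPM includes genes, such as Tbx21 and Trdc, that fell under 2-fold only because 0.5 was added to each TPM value. Aspm reversed to 0.33 on TPM. Summing near-identical rows, chosen after seeing the data, took Entpd4b to 0.18 and Zc3h11a to -0.28.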
